A study of Mus musculus with 17 samples.

Results

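Gene expression was compared between bone marrow-derived macrophages of Lyz2-Cre-Kcnj2f/f mice, called knockout, and of Kcnj2f/f mice without the driver, called floxed. The comparison used 6 of the 17 libraries of the study, 3 per genotype, and 12782 of 55401 gene identifiers passed a filter on low counts. Both genotypes carry the floxed Kcnj2 alleles. Both were given medium conditioned by B16F10, a mouse melanoma line, with KCl made isotonic. Per the study's design text, treatment lasted 6 hours and salt was at 40 mM at the end. Primary macrophages were grown from bone marrow, and Lyz2-Cre drives recombination in myeloid cells. The sources used here do not give age, littermate status or the number of animals. No group carried Lyz2-Cre without the floxed alleles, so effects of the driver and of Kcnj2 loss cannot be told apart. No knockout library received another medium, so whether the genotypes respond differently to KCl could not be tested. The 11 C57BL/6J libraries of the study served for context, among them 3 in conditioned medium and 3 in conditioned medium with KCl that was not labelled isotonic.

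Kcnj2 encodes Kir2.1, an inward rectifier potassium channel that helps to hold the resting membrane potential near the potassium equilibrium. In macrophages it is a main route of potassium across the plasma membrane, and potassium is raised in the fluid of necrotic tumour regions. Lyz2 encodes lysozyme M, a bacteriolytic enzyme and a classical macrophage marker. The widely used Lyz2-Cre allele places the recombinase in the Lyz2 gene itself, and Lyz1, the neighbouring lysozyme P gene, is best known from Paneth cells of the gut.

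The sequences of the deleted channel and of the lysozyme pair are shown because the results below turn on them. They were read from GENCODE M21 transcripts on GRCm38, which supplied all gene positions. Kcnj2 lies on chromosome 11 at chr11:111066164-111076821 on the plus strand and has 2 exons, and its 1284 coding bases all lie in exon 2. The segment lost from the floxed allele is not stated. In the stretch of coding sequence from base 394 to base 468, capitals mark the codons of the potassium selectivity filter.
Kcnj2: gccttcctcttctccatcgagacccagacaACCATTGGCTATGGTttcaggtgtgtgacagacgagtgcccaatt
Lyz2 and Lyz1 lie next to each other on the minus strand of chromosome 10, at chr10:117277331-117282321 and chr10:117287797-117292868. Each has 4 exons and 444 coding bases, of which 422 are identical (95.05%). In the opening 120 coding bases of each, capitals mark the 11 bases at which they differ.
Lyz2: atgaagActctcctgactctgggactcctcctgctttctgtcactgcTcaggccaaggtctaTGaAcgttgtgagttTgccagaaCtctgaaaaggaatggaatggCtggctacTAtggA
Lyz1: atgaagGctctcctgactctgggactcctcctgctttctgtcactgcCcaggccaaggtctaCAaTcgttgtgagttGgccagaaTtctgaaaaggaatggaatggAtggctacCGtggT

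Kcnj2 RNA fell in the knockout but was not lost. Levels are given as TMM-scaled CPM, a gene's counts relative to the library total after scaling between libraries. Kcnj2 was at 156, 126.5 and 136.5 CPM in the floxed libraries and at 17.9, 22.3 and 27.2 CPM in the knockout libraries. Every knockout library lay far below every floxed library. The knockout mean was 16.1% of the floxed mean, a log2 fold change of -2.64 (SE 0.186, adjusted p = 0.015, edgeR). As each replicate was left out the fold change stayed between -2.80 and -2.50, but the call was lost without floxed replicate 3 or any 1 knockout replicate (adjusted p 0.058 to 0.389, edgeR). The remaining signal was not at the detection limit, since 287, 374 and 458 raw counts were left in the knockout libraries. In bulk RNA, fewer cells carrying a transcript and less of it per cell cannot be told apart, here and for every gene that follows. For context, on a scale over all 17 libraries Kcnj2 was at 80.2 ± 1.67 CPM in C57BL/6J cells in conditioned medium and 307 ± 13.9 CPM with KCl (SD, n = 3 each). On that scale it was at 153 ± 17.6 CPM in floxed and 24.5 ± 4.87 CPM in knockout cells (SD, n = 3 each).

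The lysozyme genes differed in opposite directions. Lyz2 was at 17860, 22190 and 21470 CPM in the floxed libraries and at 6723, 7672 and 6619 CPM in the knockout libraries. The groups did not overlap, and the knockout mean was 34.2% of the floxed mean. Its log2 fold change was -1.55 (SE 0.147) and missed the threshold of 0.05 (adjusted p = 0.0593, edgeR). With DESeq2 it passed (adjusted p = 6.67e-20). Over all 17 alternatives its adjusted p ran from 6.67e-20 to 0.87 and its fold change from -1.64 to -1.49. Lyz1 was at 21.4, 30.7 and 26.6 CPM in the floxed libraries and at 140, 148 and 121 CPM in the knockout libraries. It thus rose 5.2-fold, from a level far below that of Lyz2 (log2 fold change 2.38, SE 0.17, adjusted p = 0.015, edgeR). On the scale over all 17 libraries, Lyz1 had means of 26.4 to 32.9 CPM in the 4 C57BL/6J groups and in floxed cells, against 149 ± 15.7 CPM in knockout cells (SD, n = 3). The Lyz1 call was lost under the same omissions as that of Kcnj2 (adjusted p 0.06 to 0.389, edgeR), with a fold change of 2.25 to 2.51 as each replicate was left out. Because the genes are near copies, reads could be split between them. The read length is not stated. Of the Lyz1 transcript's 50-base windows 16.1% also occur in the Lyz2 transcript, of its 75-base windows 6.22%, of its 100-base windows 2.06%, and none of its 150-base windows do.

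**Figure D1:**
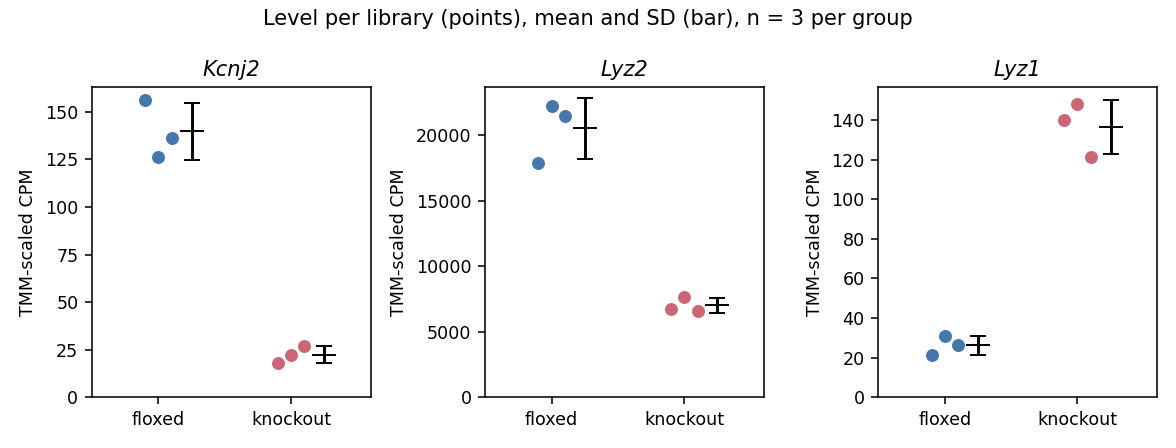
Levels of Kcnj2, Lyz2 and Lyz1 in each of the 6 libraries (points, TMM-scaled CPM on a linear axis from 0), with the mean and SD of each group of 3 as a bar. Kcnj2 and Lyz2 lie lower and Lyz1 higher in every knockout library than in any floxed library.

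The largest differences among the 6 libraries did not follow genotype. Totals were 15618236 to 16994998 counts in floxed and 16223709 to 17095003 in knockout libraries. The leading principal component held 57.1% of the variance and placed floxed replicates 1 and 2 at opposite ends, with the knockout libraries between them. Libraries fell in the same order by their length slope, the change in log2 CPM per doubling of a gene's exonic length. This slope was 0.194, -0.092 and -0.022 in the floxed libraries and -0.077, -0.06 and 0.058 in the knockout libraries. The next component held 19.3% and separated the genotypes. Xist was detected and 4 genes of the Y chromosome had no count in any of the 6 libraries. The labels do not say whether replicates were separate animals or cultures. The p-values therefore reflect the spread among these libraries alone, and that spread may be technical.

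**Figure D2:**
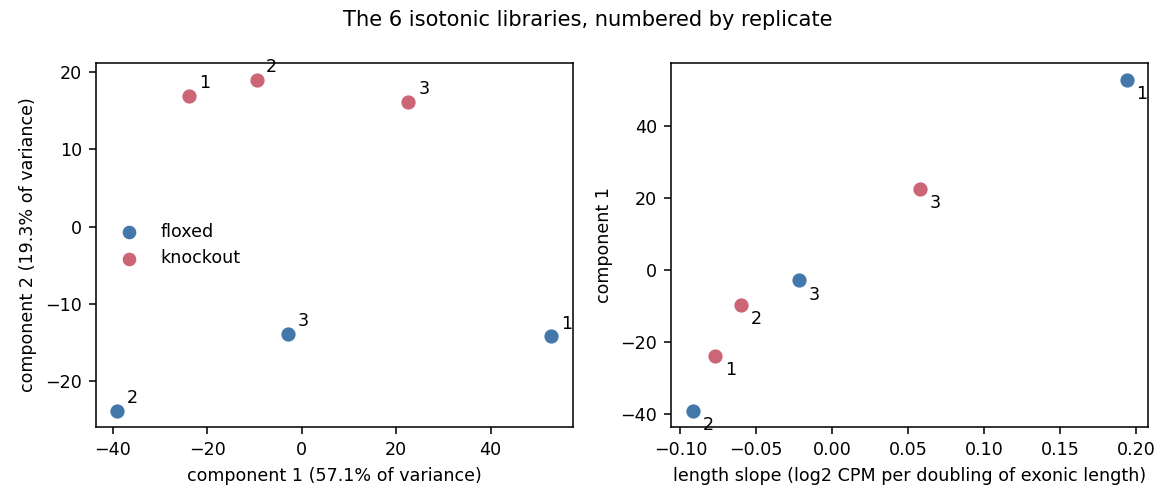
The 6 libraries, coloured by genotype and numbered by replicate, on principal components 1 and 2 of log2 CPM (left), and component 1 against the length slope of each library (right). Component 2 separates floxed (below 0) from knockout (above 0), while component 1 follows the length slope and spreads the floxed libraries most.

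Across all 12782 genes edgeR called 2 (0.0156%), of which Lyz1 rose and Kcnj2 fell (0.00782% each). At an unadjusted p under 0.05, 193 genes were higher and 523 lower (1.51% and 4.09%, together 5.6%, both called genes included). The knockout libraries lay above all floxed libraries for 608 genes (4.76%) and below them for 837 (6.55%). The interval of the fold change lay within 2-fold either way for 9368 genes, and its median width was 0.52 log2 units to each side. Calls grew when the test took up the spread along the length slope. With that slope as a covariate, edgeR called 433 genes higher (3.39%) and 594 lower (4.65%), together 8.03%. DESeq2 without it called 42 higher (0.329%) and 135 lower (1.06%), together 1.38%, and all 177 of these were called in the same direction with the length slope. Limma voom with sample weights called 169 higher (1.32%) and 407 lower (3.18%). As each replicate was left out, the count with the length slope ran from 429 to 2227, and that with DESeq2 from 32 to 132. The limma voom count was not repeated this way. Of the genes called with the length slope, 23 had the opposite sign without it. The groups below are described by their values and by these counts, and the percentages here are the background against which each count is read.

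**Figure D3:**
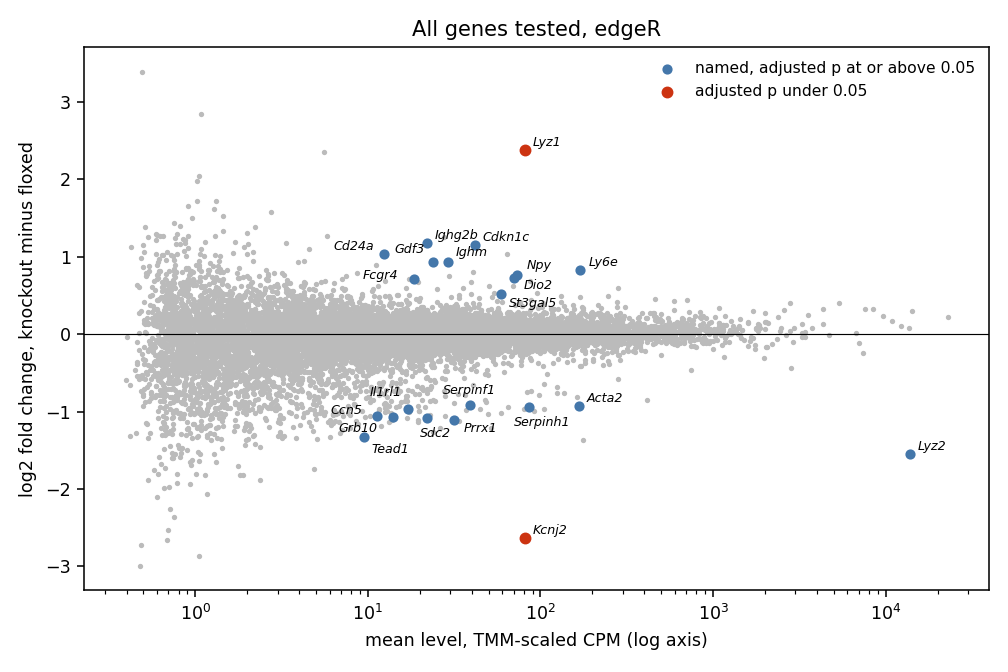
Log2 fold change, knockout minus floxed, against the mean level of each of 12782 genes (TMM-scaled CPM, log axis). Red points passed the threshold, and blue points are uncalled genes with the smallest unadjusted p in each direction, at 10 CPM or more in either genotype and with separate groups.

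The genes that follow missed the threshold with edgeR and were among those with the smallest unadjusted p on the lower side. Serpinh1, the collagen chaperone HSP47, was at 108, 115 and 117 CPM in the floxed and 59, 58.3 and 59.8 CPM in the knockout libraries. Its log2 fold change was -0.94 (SE 0.102, adjusted p = 0.0807, edgeR). Acta2, smooth muscle actin, was at 220, 211 and 228 CPM in floxed and 120, 108 and 117 CPM in knockout libraries, a log2 fold change of -0.93 (SE 0.106, adjusted p = 0.0807, edgeR). Neither gene's groups overlapped, and both were called by DESeq2 and with the length slope, also with any replicate left out. Prrx1, a transcription factor of limb mesenchyme, was at 39.3 to 48.1 CPM in floxed and 18.8 to 20.5 CPM in knockout libraries (log2 fold change -1.12, SE 0.131). Tead1, a partner of YAP, had a log2 fold change of -1.33 (SE 0.171), Sdc2, a heparan sulphate proteoglycan, of -1.08 (SE 0.133), and Ccn5, a matricellular protein, of -1.06 (SE 0.144). Serpinf1, the secreted factor PEDF, stood at -0.92 (SE 0.128) and Grb10, an adaptor of growth factor receptors, at -1.07 (SE 0.132). Il1rl1, the IL-33 receptor, was at 21.6 to 23.7 CPM in floxed and 11.3 to 11.9 CPM in knockout libraries, a log2 fold change of -0.97 (SE 0.122). Adjusted p of the genes in this paragraph was 0.0807 to 0.104 with edgeR.

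Markers of fibroblasts and stroma, listed apart from the genes above except for Acta2, all had lower mean levels in the knockout. All 9 markers were tested and 0 were called by edgeR. Of the 9, 8 were lower at an unadjusted p under 0.05, against 4.09% of all genes, and 6 had groups that did not overlap. DESeq2 called 4, limma voom 8, the fit with the length slope 8 and edgeR over all 17 libraries 5, all lower. Of all genes these fits called 1.06%, 3.18% and 4.65% lower, and the last 220 of 14676. The median log2 fold change was -0.97, against 0.00 over all genes. Summed over the list, levels were 833, 558 and 671 CPM in the floxed libraries and 351, 340 and 424 CPM in the knockout libraries. Sparc, a matrix glycoprotein, was at 156, 116 and 142 CPM in floxed and 68, 65.1 and 79.3 CPM in knockout libraries (log2 fold change -0.97, SE 0.15). Pdgfra, the receptor that marks fibroblasts, was at 6.89 to 11.2 CPM against 3.61 to 5.04 CPM (log2 fold change -1.03, SE 0.238), and Col3a1, a fibrillar collagen, at 22.7 to 53.3 CPM against 13 to 20.5 CPM (log2 fold change -1.21, SE 0.334). Col1a1, Col1a2 and Pdgfrb had overlapping groups. On the scale over all 17 libraries the sum was also higher in each C57BL/6J group, with means of 894 to 1340 CPM, than in floxed cells (754 ± 157 CPM) or knockout cells (406 ± 46.6 CPM, SD, n = 3 each). The part of this cell type in the other lower genes was not tested.

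**Figure D4:**
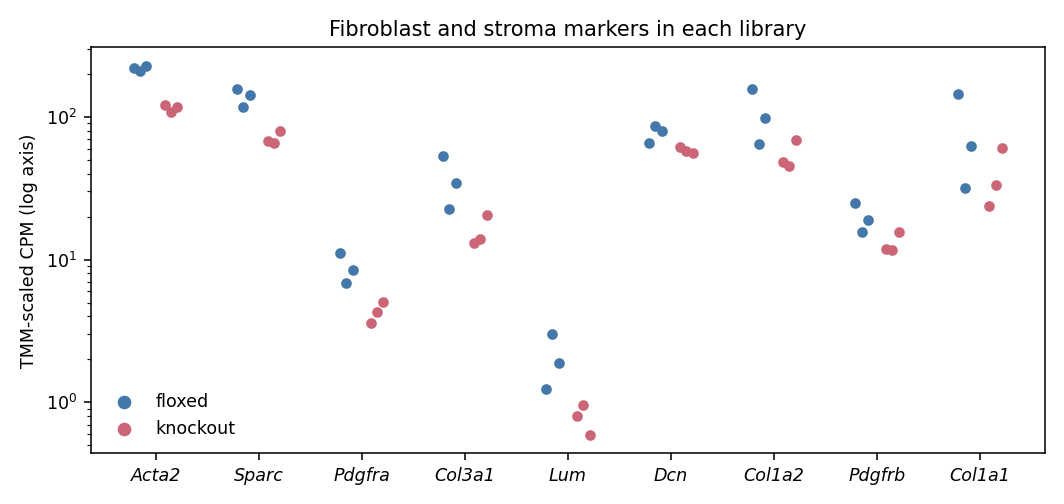
Levels of the 9 fibroblast and stroma markers in each library (TMM-scaled CPM, log axis), ordered by unadjusted p. For Acta2, Sparc, Pdgfra, Col3a1, Lum and Dcn every knockout library lies below every floxed library, and for Col1a2, Pdgfrb and Col1a1 the groups overlap.

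On the higher side stood genes of several kinds. Cdkn1c, the cell cycle inhibitor p57, was at 23.3, 27.2 and 27.1 CPM in floxed and 61.4, 51.6 and 60.1 CPM in knockout libraries, a log2 fold change of 1.16 (SE 0.133, adjusted p = 0.0807, edgeR). Ly6e, an interferon-inducible surface protein, was at 121, 115 and 132 CPM against 223, 212 and 220 CPM (0.83 on the log2 scale, SE 0.108). The groups of both genes were well apart. Npy, a neuropeptide, stood at 53.1 to 54.9 CPM in floxed and 87.8 to 93.9 CPM in knockout libraries (0.77, SE 0.102). Dio2, which activates thyroid hormone, stood at 50.2 to 55.8 CPM against 81.7 to 93.6 CPM (0.73, SE 0.113). Further log2 fold changes were 0.93 for Gdf3, a TGF-beta family ligand, 1.03 for the surface glycoprotein Cd24a, 0.71 for the IgG receptor Fcgr4 and 0.52 for St3gal5, which makes the ganglioside GM3. None of these genes passed (adjusted p 0.0807 to 0.198, edgeR), and all were called by DESeq2 and with the length slope. With a replicate left out DESeq2 called Fcgr4 and St3gal5 in 1 of 6 fits, Dio2 in 3, Cd24a in 5 and the others in all. The fit with the length slope called all of them with any replicate left out.

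Among these genes of smallest p on the higher side were also the immunoglobulin constant region genes Ighm and Ighg2b, neither of which passed with edgeR. Ighm was at 20.9, 18.7 and 20.1 CPM in floxed and 34.8, 38.7 and 40.7 CPM in knockout libraries, a log2 fold change of 0.94 (SE 0.125, adjusted p = 0.088, edgeR). Ighg2b went from 13.4 to 13.6 CPM in floxed to 26.7 to 34.8 CPM in knockout libraries (1.17, SE 0.142, adjusted p = 0.0825, edgeR). The summed B cell markers were 29 to 40.1 CPM in floxed and 59.3 to 66 CPM in knockout libraries, most of it Ighm and Jchain. The part of these markers in other higher genes was not tested.

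Summed markers of neutrophils, dendritic cells, T and NK cells, mast cells and basophils, red cells and platelets, and melanoma cells overlapped between genotypes. Most of the red cell and platelet sum was Pf4, and the 4 tested genes of that list had a median log2 fold change of 0.51. Among single tested members, the groups of Itga2b, Mcpt8 and Kit did not overlap. Itga2b, a platelet integrin, was at 7.72 to 10.9 CPM in floxed and 12.9 to 15.3 CPM in knockout libraries (0.62, SE 0.177, adjusted p = 0.465, edgeR), and Pf4, a platelet chemokine, at 161 to 372 CPM against 170 to 241 CPM. Mcpt8, a basophil protease, was at 4.02 to 8.06 CPM against 1.96 to 3.43 CPM (-1.07, SE 0.335, adjusted p = 0.548, edgeR). Kit, of the same marker list, was at 2.048 to 3.055 CPM against 3.167 to 5.108 CPM (0.59, SE 0.268, adjusted p = 0.984, edgeR). The 12 macrophage identity markers had a median log2 fold change of -0.02, with 0 called by edgeR. At an unadjusted p under 0.05, Fcgr1 was higher (0.40) and Lyz2 lower, and limma voom called 1 in each direction. The sum without Lyz2 was 5651 to 7684 CPM in floxed and 6334 to 7171 CPM in knockout libraries. Csf1r, the receptor for macrophage colony-stimulating factor, stood at 566 to 1254 CPM and 738 to 1057 CPM. Neutrophil markers summed to 12.4 to 26.5 CPM in floxed and 22.2 to 27.8 CPM in knockout libraries, with Elane and Retnlg at 0 in all 6. Of the melanocyte markers, Tyr and Dct had no count in any of the 6 libraries.

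Of 15 inward rectifier genes, 6 had no count in any of the 6 libraries and 3 passed the low-count filter. Kcnj5, a subunit of G protein-gated channels, was at 2.2, 1.77 and 2.93 CPM in floxed and 3.8, 3.82 and 3.26 CPM in knockout libraries. The groups did not overlap, but the log2 fold change of 0.65 did not pass (SE 0.246, adjusted p = 0.757, edgeR). Kcnj10 stayed at 0.671 to 2.14 CPM against 0.81 to 1.49 CPM. Of 22 other potassium channel genes, 7 were tested and edgeR called 0, with 0 at an unadjusted p under 0.05 and 0 by DESeq2 or limma voom. With the length slope edgeR called 1 higher and 0 lower, against 3.39% and 4.65% of all genes. That gene was Kcnk13, a halothane-inhibited pore channel of phagocytes, at 44.8 to 54.1 CPM against 60.2 to 64.3 CPM (0.27, SE 0.123), with no overlap. In the fit with the length slope it stood at 0.31 (adjusted p = 0.0132, edgeR), and 3 such fits with a replicate left out called it. Kcnn4, a calcium-activated channel, stood at 25.7 to 39.4 CPM and 34.1 to 42.1 CPM. Among 25 tested potassium and chloride transporters and their regulators, edgeR and DESeq2 called 0, limma voom 1 higher, edgeR with the length slope 1 higher, and the median was -0.04.

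With the low-count filter and without the length slope, the osmolyte genes gave no edgeR call over the 6 libraries. Slc5a3, the inositol transporter, which stood 3.65 log2 units higher with KCl than in conditioned medium in C57BL/6J cells, was at 20.6, 25.5 and 22.4 CPM in floxed and 20.6, 18.5 and 19.5 CPM in knockout libraries. The groups lay apart by the narrowest margin, 20.64 against 20.56 CPM, and the log2 fold change was -0.23 (95% interval -0.55 to 0.09). Aqp1, a water channel, was at 6.86, 7.85 and 7.87 CPM in floxed and 2.43, 1.97 and 2.31 CPM in knockout libraries. No libraries overlapped, and its log2 fold change of -1.75 did not pass with edgeR (SE 0.183, adjusted p = 0.0807) but passed with DESeq2 (adjusted p = 2.41e-09). It also passed with edgeR without the low-count filter (adjusted p = 0.0244) and without floxed replicate 1 (adjusted p = 0.0444). Slc38a2, an amino acid transporter, was at 229 to 273 CPM against 192 to 213 CPM (-0.30, SE 0.116). Of 14 tested genes of the NFAT5 and osmolyte list, edgeR called 0, and the median was -0.15. At an unadjusted p under 0.05, 4 were lower and 0 higher, against 4.09% and 1.51% of all genes. DESeq2 and limma voom called 1 lower and edgeR with the length slope 3 lower, against 1.06%, 3.18% and 4.65% of all genes.

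Inflammatory genes, whose products macrophages use against tumours and microbes, gave no call with edgeR in the 6 libraries without the length slope. Of 24 tested, edgeR and DESeq2 called 0, and the median was -0.05. At an unadjusted p under 0.05, 2 were lower and 0 higher, against 4.09% and 1.51% of all genes. Limma voom called 1 in each direction, against 1.32% higher and 3.18% lower of all genes. With the length slope as a covariate edgeR called 2 higher and 6 lower, against 3.39% and 4.65%. Tnf was at 3066, 3573 and 3471 CPM in floxed and 3695, 3431 and 3142 CPM in knockout libraries, a log2 fold change of 0.02 (95% interval -0.28 to 0.33). Il1b was at 1953, 2221 and 2247 CPM against 1915, 1978 and 1828 CPM (-0.17, interval -0.45 to 0.12). Both genes overlapped between genotypes. With the length slope edgeR called Il1b lower (-0.20, adjusted p = 0.0132), and 3 fits with a replicate left out did too. Nos2, inducible nitric oxide synthase, ranged from 6.83 to 29.5 CPM within floxed libraries alone, against 11.4 to 21.1 CPM in knockout libraries. Il6 ranged from 122 to 332 CPM in floxed and 133 to 213 CPM in knockout libraries, and its interval of -1.19 to 0.50 included a 2-fold lower level. Ccl2, a monocyte chemoattractant, was at 199, 463 and 350 CPM in floxed and 249, 247 and 178 CPM in knockout libraries, and its groups overlapped. Its log2 fold change of -0.59 did not pass (SE 0.306, adjusted p = 1, edgeR). Both Il6 (-0.52, adjusted p = 1.3e-05) and Ccl2 (-0.74, adjusted p = 1.45e-08) were called lower by edgeR with the length slope, also with any replicate left out. Il12b was called higher in that fit (0.78, adjusted p = 0.00441, edgeR), also with any replicate left out. Cxcl10 and Cxcl9, interferon-inducible ligands of CXCR3, were the members at an unadjusted p under 0.05. Cxcl10 was at 70.7, 135 and 106 CPM against 73.6, 62.1 and 50.2 CPM (-0.75, SE 0.256, adjusted p = 0.649, edgeR), with overlapping groups. With the length slope edgeR called it lower (-0.89, adjusted p = 3.16e-08), also with any replicate left out. Cxcl9 was at 5.09, 4.1 and 4.57 CPM against 1.74, 3.35 and 2.49 CPM (-0.86, SE 0.271, adjusted p = 0.56, edgeR), with no overlap.

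Alternative activation markers stood on both sides. Of 18 tested, edgeR called 0, 1 was higher and 3 lower at an unadjusted p under 0.05, DESeq2 called 1 lower, limma voom 1 higher and 2 lower, and edgeR with the length slope 1 higher and 2 lower. The median was 0.06 and crossed 0 without knockout replicate 3 (-0.01). Mrc1, the mannose receptor, was at 157, 180 and 158 CPM in floxed and 160, 133 and 142 CPM in knockout libraries (-0.19, 95% interval -0.48 to 0.10). Vegfa, the angiogenic factor, was at 40.1, 28.1 and 28.4 CPM against 20.3, 22 and 22.7 CPM (-0.57, SE 0.174, adjusted p = 0.519, edgeR), with no overlap. Klf4, a transcription factor of the alternative state, was at 5.12 to 8.12 CPM against 2.31 to 4 CPM (-1.10, SE 0.276, adjusted p = 0.355, edgeR). Chil3 was at 0.793 to 1.29 CPM against 1.49 to 2.99 CPM (1.05, SE 0.355). Arg1 was too low to test, with 3 counts in all 6 libraries together. Il10, which limits inflammation, ranged from 4.02 to 10.2 CPM in floxed and from 4.51 to 7.41 CPM in knockout libraries.

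Genes of class I antigen presentation stood on the higher side, with no call by edgeR in the 6 libraries without the length slope. All 22 tested genes of MHC class I presentation had a positive log2 fold change, with a median of 0.27. EdgeR called 0. At an unadjusted p under 0.05, 7 were higher and 0 lower, against 1.51% and 4.09% of all genes. DESeq2 called 4 higher and limma voom 6 higher, against 0.329% and 1.32% of all genes. With the length slope 10 were higher and 1 lower, against 3.39% and 4.65%. H2-T23, a non-classical class I gene, was at 214, 246 and 252 CPM in floxed and 313, 330 and 311 CPM in knockout libraries (0.42, SE 0.115, adjusted p = 0.402, edgeR). H2-D1, a classical class I gene, was at 2479, 2208 and 2576 CPM against 3077, 3236 and 3244 CPM (0.40, SE 0.121, adjusted p = 0.519, edgeR). Neither gene's groups overlapped. H2-Q6 and H2-Q7 stood at 0.60 and 0.58 but are near copies of each other, so counts could be split between them and their single values are uncertain. B2m, the light chain of class I, was at 2134 to 2369 CPM against 2685 to 2974 CPM (0.32, SE 0.118). The transporter gene Tap1 was at 43.4 to 48.8 CPM against 52.8 to 57.9 CPM (0.22, SE 0.114).

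Of 37 tested interferon-stimulated genes, edgeR called 0, and the median was 0.13. At an unadjusted p under 0.05, 6 were higher and 0 lower, against 1.51% and 4.09% of all genes. DESeq2 called 1 higher and limma voom 6 higher, against 0.329% and 1.32% of all genes. The fit with the length slope called 14 higher and 1 lower, against 3.39% and 4.65%. Zbp1, a sensor of Z-form nucleic acid, was at 24.2, 29.4 and 31.3 CPM in floxed and 45.8, 42.8 and 39.3 CPM in knockout libraries (0.59, SE 0.143, adjusted p = 0.324, edgeR). Oas3, which makes the activator of RNase L, was at 38.5, 22.3 and 28.1 CPM against 48, 48.6 and 58.1 CPM (0.80, SE 0.214, adjusted p = 0.39, edgeR). Both had groups without overlap. Of the 37, 29 had a positive and 8 a negative log2 fold change, and Cxcl10 and Cxcl9 of the inflammatory list, which interferon also induces, were on the lower side.

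Lysosomal genes stood on the higher side, again with no call by edgeR in the 6 libraries without the length slope. Of 30 tested, edgeR and DESeq2 called 0, and the median was 0.15. At an unadjusted p under 0.05, 3 were higher and 0 lower, against 1.51% and 4.09% of all genes. Limma voom called 1 higher, against 1.32% of all genes. With the length slope 13 were higher and 0 lower, against 3.39% and 4.65%. Psap, the precursor of saposins, was at 7093, 7348 and 7896 CPM in floxed and 9843, 8830 and 9298 CPM in knockout libraries (0.32, SE 0.122, adjusted p = 0.75, edgeR). Gusb, beta-glucuronidase, was at 402 to 422 CPM against 486 to 506 CPM (0.28, SE 0.103). Ctss, a protease that trims the class II invariant chain, was at 4250 to 4883 CPM against 5890 to 6333 CPM (0.40, SE 0.121). All 3 had groups without overlap.

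Hypoxia and ATF4 stress genes stood on the lower side, with no edgeR call in the 6 libraries without the length slope. Of 22 tested hypoxia genes, edgeR called 0, and the median was -0.12. At an unadjusted p under 0.05, 5 were lower and 0 higher, against 4.09% and 1.51% of all genes. DESeq2 called 2 lower and limma voom 6 lower, against 1.06% and 3.18% of all genes. Adding the length slope gave 6 lower and 0 higher, against 4.65% and 3.39%. Epas1, which encodes HIF2-alpha, was at 14.5, 11.3 and 13.4 CPM in floxed and 6.35, 5.56 and 6.64 CPM in knockout libraries (-1.08, SE 0.166, adjusted p = 0.118, edgeR). Ddit4, an inhibitor of mTORC1, was at 19.1, 14.6 and 22.8 CPM against 10.6, 10.9 and 11.9 CPM (-0.76, SE 0.189, adjusted p = 0.349, edgeR). Neither overlapped between groups. Of 19 tested ATF4 genes, edgeR called 0, and the median was -0.16. At an unadjusted p under 0.05, 3 were lower and 0 higher, against the same shares of all genes as above. DESeq2 called 2 lower and limma voom 4 lower, against 1.06% and 3.18% of all genes. Adding the length slope gave 8 lower and 1 higher, against 4.65% and 3.39%. An edgeR fit of all 17 libraries gave 2 lower, against 220 of 14676 genes. Psat1, an enzyme of serine synthesis, was at 39.7 to 42.6 CPM in floxed and 27.8 to 31.8 CPM in knockout libraries (-0.48, SE 0.117, adjusted p = 0.334, edgeR).

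Lists of central metabolism had no call with edgeR in the 6 libraries without the length slope. Medians of glycolysis and of the TCA cycle lay near 0, and that of glutamine and glutamate metabolism below 0. The median log2 fold change was -0.02 over 26 glycolysis genes, 0.01 over 28 genes of the TCA cycle and itaconate, and -0.11 over 22 genes of glutamine and glutamate metabolism. At an unadjusted p under 0.05, 1 was higher and 1 lower in each of the former lists and 3 were lower in the last. DESeq2 called 1 lower in the last and limma voom 1 lower in glycolysis and 2 lower in the last. In the fit with the length slope, edgeR called 2 higher and 2 lower in glycolysis, 2 higher in the TCA list and 1 higher and 4 lower in the last. Ldha, lactate dehydrogenase A, had a log2 fold change of -0.04 (95% interval -0.36 to 0.28) and Hk2, hexokinase 2, of -0.04 (-0.32 to 0.23). Glul, which makes glutamine, stood at -0.12 (-0.41 to 0.16) and the importer Slc1a5 at -0.23 (-0.60 to 0.14). None of these intervals reached 2-fold. Slc7a11, the cystine-glutamate exchanger, was at 1508 to 1957 CPM in floxed and 1375 to 1648 CPM in knockout libraries. Acod1, which makes itaconate, was at 1391 to 2093 CPM and 1698 to 1978 CPM.

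In the remaining lists edgeR also called 0 in the 6 libraries without the length slope. Cell cycle genes had the lowest median of the pathway lists with at least 5 tested genes (-0.22 over 35), with Tk1, a thymidine kinase, lower at an unadjusted p under 0.05 (-0.54, SE 0.159), and the median was -0.15 with the length slope. Immediate early genes (22, median -0.12) and cholesterol genes (23, median -0.10) stood below 0, as did the 11 tested respiratory chain genes of mitochondrial DNA (-0.11). MHC class II genes (12, median 0.18) stood above 0. NF-kB feedback genes (22, median 0.01), inflammasome genes (18, median 0.05), NRF2 targets (20, median 0.00) and heat shock chaperones (18, median 0.00) lay near 0, and the NF-kB median was -0.02 with total counts only. With the length slope the inflammasome median was 0.17, and edgeR called 3 of its genes higher and 1 lower. That fit also called 2 NF-kB genes lower, 1 NRF2 target higher and 1 heat shock gene in each direction. Cytosolic ribosomal protein genes (60) had a median of 0.04, and of -0.10 with the length slope, where 13 were lower. Nuclear respiratory chain genes (65) had a median of 0.08, and of -0.06 with the length slope. At an unadjusted p under 0.05 these lists held 1 gene higher in MHC class II presentation, and 1 lower among cell cycle, 2 among immediate early and 2 among heat shock genes. DESeq2 called 1 immediate early gene lower, and limma voom 1 class II gene and 1 immediate early gene higher and 1 gene lower in each of the cell cycle, immediate early and heat shock lists. Nuclear and non-polyadenylated RNAs summed to 1238 to 1433 CPM in floxed and 1163 to 1258 CPM in knockout libraries, and histone genes to 42.4 to 79.7 CPM and 58.3 to 76.4 CPM.

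**Figure D5:**
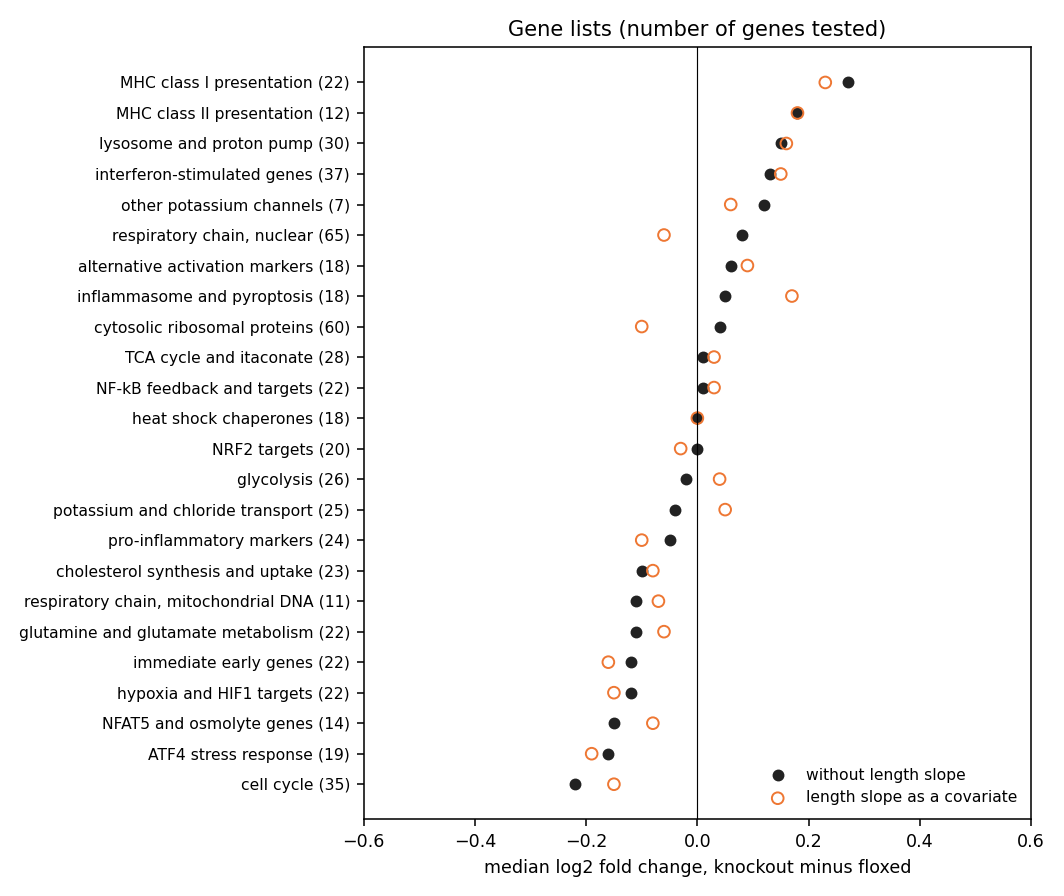
Median log2 fold change, knockout minus floxed, of each pathway list with at least 5 tested genes (cell type markers not shown), without (filled) and with (open) the length slope as a covariate; the number of tested genes is in brackets. Among these pathway lists MHC class I genes stand highest and cell cycle genes lowest without the covariate, and the medians of ribosomal and nuclear respiratory chain genes change sign with it.

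Genes that respond to KCl in C57BL/6J cells were read in the genotype comparison, with which they share no library. In those cells 1180 genes rose at least 2-fold with KCl (8.13% of 14519) and 1579 fell at least 2-fold (10.9%, edgeR). Both sets were taken without the length slope. Over all 17 libraries that slope was 0.037 to 0.085 in conditioned medium and -0.092 to -0.003 with KCl. An effect of KCl and the trend with gene length therefore cannot be told apart in these sets, also where the length slope enters the genotype fit. Of the genes that rose, 987 were tested between genotypes and had a median log2 fold change of 0.02. Kcnj2 itself was the only call among them. At an unadjusted p under 0.05, 22 of them were higher and 27 lower in the knockout, against 1.51% and 4.09% of all genes. DESeq2 called 4 in each direction, against 0.329% higher and 1.06% lower of all genes. In the fit with the length slope 27 were called higher and 100 lower, against 3.39% and 4.65% of all genes, and the median was -0.09. Of the genes that fell with KCl, 1404 were tested between genotypes, edgeR called 0, 15 were higher and 42 lower at an unadjusted p under 0.05, DESeq2 called 3 higher and 8 lower, and the median was -0.04. In that fit with the slope 40 were called in each direction and the median was 0.06. The 5302 genes not called with KCl had a median of -0.01. Among these 92 were higher and 291 lower at an unadjusted p under 0.05, and DESeq2 called 15 higher and 72 lower. With the length slope 182 of these were called higher and 228 lower, and the median was 0.01. Dio2 was among the genes higher with KCl (2.29 on the log2 scale) and was higher in knockout cells. Single members such as Il1b, 2.49 log2 units lower with KCl, overlapped between genotypes.

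Genes near the modified loci were read separately. Both genotypes carry the floxed Kcnj2 alleles. Whether they also share all sequence inherited together with these alleles is not stated, and an effect of such sequence was not tested. Within 5 Mb of Lyz2, 36 genes were tested and Lyz1, 10.5 kb from it, was the only call with edgeR without the length slope. At an unadjusted p under 0.05, 1 was higher and 2 lower, against 1.51% and 4.09% of all genes. DESeq2 called 1 higher and 2 lower, against 0.329% and 1.06% of all genes, and edgeR with the length slope 2 in each direction. Msrb3, a methionine sulphoxide reductase, was at 7.85 to 9.33 CPM in floxed and 4 to 4.21 CPM in knockout libraries (-1.05, SE 0.159, adjusted p = 0.111, edgeR), and Hmga2, a chromatin protein, at 12.4 to 18.7 CPM against 7.72 to 9.38 CPM (-0.89, SE 0.198, adjusted p = 0.281, edgeR). Both were called lower by DESeq2 (adjusted p = 0.000159 for Msrb3 and 0.0144 for Hmga2) and by edgeR with the length slope. With a replicate left out DESeq2 called Msrb3 in 4 of 6 fits and Hmga2 in 1. The median over the 36 genes was -0.01. Within 5 Mb of Kcnj2, 80 genes were tested, edgeR called 0, 1 was lower and 0 higher at an unadjusted p under 0.05, DESeq2 called 1 lower, and the median was 0.03. With the length slope edgeR called 1 higher and 4 lower. The gene lower at an unadjusted p under 0.05 and with DESeq2 was Fam20a, a pseudokinase. It was at 4.98 to 6.16 CPM in floxed and 1.81 to 3.26 CPM in knockout libraries (-1.17, SE 0.255, adjusted p = 0.272, edgeR). DESeq2 called Fam20a in 1 of 6 fits with a replicate left out.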

How the data were processed

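Macrophage RNA was sequenced in 17 libraries, and the authors deposited raw counts per Ensembl mouse gene, 1 column per library. Per the submitters' processing notes DESeq2 1.30.1 was used, with no role stated; the sources used here do not give the aligner, counting program, genome build or strand. Groups were taken from the strain and treatment labels, and the label "isotonic" is not explained there. Symbols and positions came from GENCODE M21 on GRCm38; identifiers without a symbol held 0.0121% of counts and stayed in.

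The 6 isotonic libraries were fitted alone with edgeR 4.0.16 in R 4.3.3: filter by group, TMM factors, robust dispersion, quasi-likelihood F test, and Benjamini-Hochberg adjustment over 12782 genes at 0.05. SE and 95% interval belong to the log2 fold change. KCl was compared with conditioned medium in the 11 C57BL/6J libraries likewise (14519 genes). Alternatives were DESeq2 1.42.0, limma 3.58.1 voom with sample weights, other scalings and filters, non-robust estimation, the replicate block, all 17 libraries, leaving out each replicate, and the length slope; a GC slope, and leaving out replicates with DESeq2 or the length slope, were added after seeing the data. The length slope is estimated from the same counts it adjusts. The fits were tested on simulated data.

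The comparison and the 37 gene lists (733 symbols, 732 matched) were chosen with earlier results of these data known. Named are Kcnj2, Lyz2 and Lyz1, a panel of activation and metabolic genes, called genes, up to 10 uncalled genes per direction by smallest p (at least 10 CPM in a group, no overlap), up to 4 members per list and up to 4 neighbours per locus; Csf1r, H2-D1, B2m, Tap1 and markers at 0 were named outside this rule, after their values were seen. Some genes are not reported here. Counts of same-group replicates differed by more than sampling noise (5.95 to 146 times, as chi-square over its degrees of freedom), so all were kept. Depth was 15618236 to 17095003 counts per library, and a gene at 0 is below 3 counts there, counting error alone.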

Additional observations from a re-analysis of the deposited data

How the results depend on the processing

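Kcnj2 and Lyz1 kept their direction in every alternative, and their fold changes moved little (Kcnj2 -2.80 to -2.50 and Lyz1 2.25 to 2.51 as each replicate was left out). Their calls did not: both were lost without floxed replicate 3 and without knockout replicate 1, 2 or 3 (Kcnj2 adjusted p 0.058 to 0.389, edgeR), where fewer samples are fitted. With the replicate block Kcnj2 stood at -2.65 (adjusted p = 0.263, edgeR) and 0 genes were called, with 458 at an unadjusted p under 0.05. After each gene's group mean was taken off, same-numbered libraries of the 2 genotypes correlated at -0.59, 0.21 and -0.23. Differently numbered ones correlated at -0.66 to 0.7. These values cannot decide whether replicate numbers pair the samples, since the largest differences among the libraries followed the length slope. Lyz2 passed the threshold with total counts only (-1.56), no low-count filter (-1.55), DESeq2 (-1.54), limma voom (-1.56), non-robust estimation (-1.55), the length slope (-1.60), the GC slope (-1.52) and all 17 libraries (-1.55), and ran from -1.64 to -1.49 as each replicate was left out, passing only without floxed replicate 1.

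The number of genes called between genotypes was 2, and 12 with no low-count filter, 4 with the GC slope, 177 with DESeq2, 272 with all 17 libraries, 576 with limma voom and 1027 with the length slope. It ran from 0 to 14 as each replicate was left out, with 14 without floxed replicate 1. With the length slope kept, it was 545, 429 and 2227 without floxed replicate 1, 2 and 3, 446 without knockout replicate 3, and 299 of 1027 genes were called in every such fit. With DESeq2 it ran from 32 to 132, with 38 without floxed replicate 3 and 46, 32 and 73 without knockout replicate 1, 2 and 3, and 28 of 177 genes were called in every such fit. KCl changed 7830 genes against conditioned medium and 4400 with the length slope. Of these genes 49.3% were higher, and 32.6% of 8014 with total counts only, where the median of all genes shifted by -0.22. The cause of these differences was not tested. Of the values of single genes and list medians, 2879 stayed on their side of the threshold or within the spread, 221 passed only under an alternative, 5 no longer passed, 25 medians moved beyond the spread, and no named gene changed sign where it was called. Of the 1027 genes called with the length slope, 23 had the opposite sign without it.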

Other observations

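Outside the rule for naming genes, and chosen after their values were seen, a few further genes showed groups without overlap. Marco, a scavenger receptor that KCl lowered strongly in C57BL/6J cells (log2 fold change -3.72), was at 378, 663 and 559 CPM in floxed and 329, 301 and 261 CPM in knockout libraries, a log2 fold change of -0.84 (SE 0.219, adjusted p = 0.378, edgeR). On the scale over all 17 libraries Marco stood at 950 CPM in conditioned medium, 73 CPM with KCl and 584 CPM in floxed cells in isotonic KCl (n = 3 each); strain and the isotonic setting cannot be told apart there. Cxcl5, a neutrophil chemoattractant, was at 88.7, 154 and 122 CPM in floxed and 63.9, 62.1 and 57.6 CPM in knockout libraries (-0.99, SE 0.203, adjusted p = 0.232, edgeR). Ptx3, a soluble pattern recognition protein, was at 138, 380 and 243 CPM against 115, 99.2 and 81 CPM (-1.36, SE 0.354, adjusted p = 0.378, edgeR). Fgf7, a growth factor made by mesenchymal cells, was at 22.9 to 29.9 CPM against 13.1 to 13.3 CPM (-0.99, SE 0.143, adjusted p = 0.111, edgeR).

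Ighg1, an immunoglobulin heavy chain constant region, had 27, 38 and 24 raw counts in floxed and 155, 153 and 156 in knockout libraries, a log2 fold change of 2.36 (SE 0.259, adjusted p = 0.0807, edgeR). Igkc, the kappa light chain constant region, was at 27.6, 52.8 and 45.4 CPM in floxed and 94.4, 86.9 and 75.8 CPM in knockout libraries (1.03, SE 0.242, adjusted p = 0.305, edgeR). The groups of both genes lay apart.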
